A study of Mus musculus with 8 samples.

Results

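Actin contractile genes that are targets of the transcription factor SRF were examined in embryonic stem (ES) cells of the mouse, of 3 kinds. The genes were Acta2, Tagln, Cnn1, Cnn2, Tpm1, Tpm2 and Myl9, and every array probe annotated with one of these symbols was taken, whatever its level. This gave 9 of the 25697 probes, for 5 of the 7 genes. Acta2 had 4 probes, Cnn2 had 2, and Tagln, Tpm1 and Tpm2 had 1 each, numbered below from the highest mean level down. No probe carried the name Cnn1 or Myl9 in the annotation, and these genes were not analysed here. Whether dimmer probes without an annotation read them is not known. All 9 probes were detected above the negative controls on all 8 arrays, with a highest detection p of 0.00125 for Tagln on 1 fertilized array. All therefore passed the later filter on dim probes, but the annotation had already left out many dim probes.

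The androgenetic cells were ES cells from blastocysts with paternal genomes only, the parthenogenetic cells came from activated eggs and had maternal genomes only, and the fertilized cells had 1 genome from each parent. All were of strain B6129F1. By their labels the parthenogenetic cells were female, and the other kinds were given as both female and male and as containing X as well as Y. Passages 6, 7 and 8 were each run once for the androgenetic and the fertilized kind (n = 3 each), and passages 6 and 7 for the parthenogenetic kind (n = 2). How many lines each kind stands for is not given in the labels, so the p-values measure the spread between passages, which may be technical.

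Smooth muscle actin (Acta2) forms thin filaments that tropomyosins (Tpm1, Tpm2) coil along and that calponins (Cnn1, Cnn2) and transgelin (Tagln) bind and bundle. Myl9 is a regulatory light chain of myosin II, the motor that pulls on these filaments. SRF binds a DNA element called the CArG box. Its cofactors of the MRTF family are held in the cytoplasm by monomeric actin and enter the nucleus when actin polymerises. These genes are abundant in smooth muscle and in stress fibres of spread fibroblasts, and ES cells in compact colonies have few stress fibres.

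The promoters of Acta2, Cnn2 and Tpm1 are shown because each held a CArG box or a near match within the window searched. RefSeq (GRCm38.p6) windows of 300 bases, 250 before each gene's annotated start and 50 from it on, were given for 6 of the 7 genes, and Tagln was the exception. The motif was CC, 6 letters that are each A or T, and GG, which is the same rule on both strands. Capitals mark windows of 10 bases with at most 1 letter off it, and only the 250 bases before the start are printed, 5′ to 3′ along the gene.
Acta2, chr19:34255374-34255623, minus strand: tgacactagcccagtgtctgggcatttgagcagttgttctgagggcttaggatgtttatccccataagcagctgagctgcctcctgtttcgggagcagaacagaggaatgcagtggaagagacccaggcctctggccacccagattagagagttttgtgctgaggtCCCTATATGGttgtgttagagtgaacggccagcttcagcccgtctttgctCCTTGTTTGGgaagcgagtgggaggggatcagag
Cnn2, chr10:79988350-79988599, plus strand: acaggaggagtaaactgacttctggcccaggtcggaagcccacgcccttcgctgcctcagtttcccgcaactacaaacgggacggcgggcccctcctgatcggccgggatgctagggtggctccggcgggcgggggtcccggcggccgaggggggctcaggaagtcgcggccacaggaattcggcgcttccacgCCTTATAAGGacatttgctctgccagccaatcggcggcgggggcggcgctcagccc
Tpm1, chr9:67049214-67049463, minus strand: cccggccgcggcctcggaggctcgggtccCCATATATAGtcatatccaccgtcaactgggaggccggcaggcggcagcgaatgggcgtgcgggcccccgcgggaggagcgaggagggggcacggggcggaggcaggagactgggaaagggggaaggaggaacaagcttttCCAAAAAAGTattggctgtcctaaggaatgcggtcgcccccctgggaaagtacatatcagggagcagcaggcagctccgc
Counting back from the start, the Cnn2 match began at base -56 and had every letter of the motif. The Acta2 matches began at -84 and -34 and those of Tpm1 at -221 and -80, each with 1 letter off. Myl9, with no probe here, held a full match at -161 and another with 1 letter off at -99. The windows of Tpm2 and Cnn1 held none. Of all 32851 promoter windows, 1.63% held a full CArG box and 21.1% one with at most 1 letter off. The matches are a description of these letters, and binding of SRF was not measured.

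Facts of the whole experiment bear on every value below. Signals were background-corrected, quantile normalized and taken to log2, with an offset of 16 that compresses folds of dim probes. Between 10623 and 11174 probes were detected per array. Across the 12300 probes kept, arrays of one kind correlated at 0.985 to 0.998 and arrays of different kinds at 0.861 to 0.967, as a description across probes. The 11 measured markers of pluripotent cells were detected on every parthenogenetic and fertilized array. Their normalized signals summed to between 48417 and 53804 on fertilized, 64661 and 65565 on parthenogenetic, and 9116 and 9188 on androgenetic arrays, where 10 of the 11 were detected and Fgf4 was not.

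The androgenetic cells were set against fertilized cells to see what a wholly paternal genome goes with. All 5 measured contractile genes were higher in androgenetic cells, by 9 of 9 probes, and for each probe every androgenetic array lay above every fertilized array. The share of all kept probes with groups apart is not given here for any comparison, so such separation only describes the members. The increases ran from 2.00-fold for Cnn2 to 5.30-fold for Tagln, with a median log2 change of 1.52 over the 5 genes. In bulk RNA, fewer cells of a type and less RNA per cell cannot be told apart. Calls were common in this comparison. Of all kept probes, 74.0% passed an adjusted p of 0.05 in either direction and 36.2% passed as higher, with a median log2 change of -0.02.

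Acta2 encodes the actin that defines smooth muscle and myofibroblasts. Its probe 2 read log2 levels of 13.53, 13.44 and 13.47 on the androgenetic arrays of passages 6, 7 and 8. The fertilized arrays of the same passages read 11.57, 11.31 and 11.50. The androgenetic arrays lay within 0.1 of each other and far above the fertilized ones. The difference was 2.02 ± 0.083 (log2, SE), or 4.07-fold (limma adjusted p = 8.04e-08). Probe 4 gave 1.98 ± 0.097, probe 1 gave 1.52 ± 0.088 and probe 3 gave 1.50 ± 0.081, so the 4 probes agreed in direction and differed in size. Probe 1 was the brightest, with unnormalized androgenetic signals of 47699 to 50455, up to 76% of the highest signal on the array. Probe 3, with signals of at most 13.2% of the highest on the array, gave a change of similar size. The part of the scanner's upper limit in the smaller change of probe 1 was not tested.

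**Figure D1:**
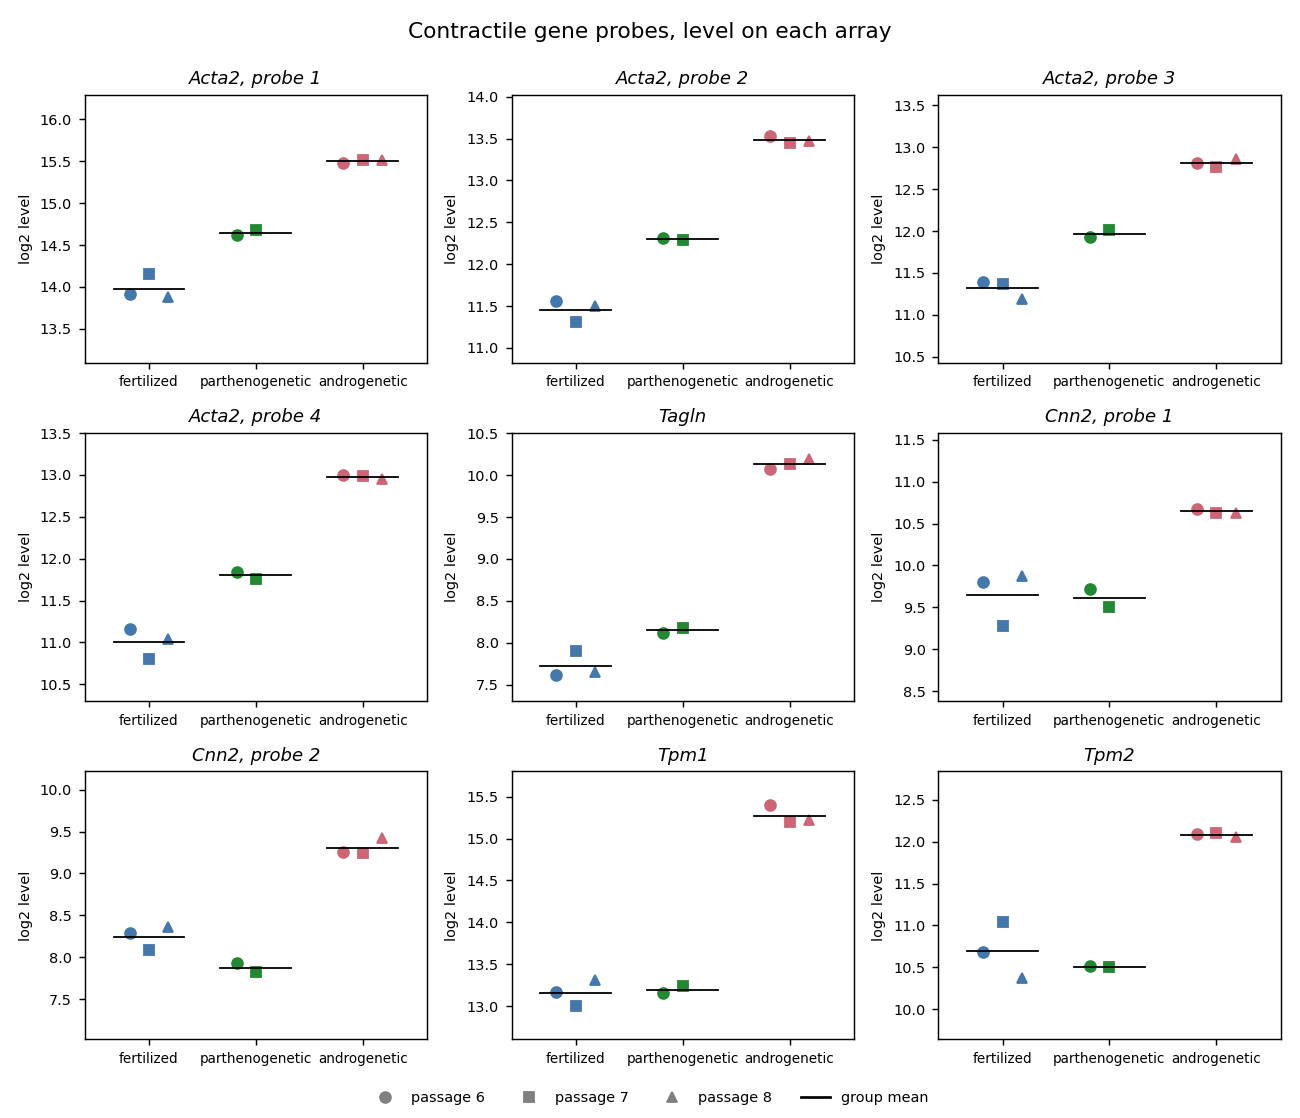
Log2 level (vertical axis, a span of 3.2 in every panel) of each of the 9 probes on the 8 arrays, with 1 point per array, its shape showing the passage and the line the group mean. Androgenetic arrays are the highest for all 9 probes. The parthenogenetic arrays lie between the other groups for Acta2 and Tagln, among the fertilized arrays for Tpm1, Tpm2 and Cnn2 probe 1, and below them for Cnn2 probe 2.

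Tagln, an actin-bundling protein often used as an early smooth muscle marker, had the largest increase among the 5 genes. It read 10.07, 10.14 and 10.19 on androgenetic and 7.62, 7.90 and 7.65 on fertilized arrays of passages 6, 7 and 8. The lowest androgenetic array was above the highest fertilized one by a margin many times the spread inside either group. The change was 2.41 ± 0.092 (log2, SE), or 5.30-fold (limma adjusted p = 5.41e-08), and 2.17% of kept probes had one as large. Its fertilized signals were dim, at 245 to 284 before normalization, against 1412 to 1425 in androgenetic cells.

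Tropomyosins stabilise actin filaments and set which motors and severing proteins can reach them. Tpm1 read 15.41, 15.20 and 15.22 on androgenetic and 13.16, 13 and 13.31 on fertilized arrays. It rose by 2.12 ± 0.10 (log2, SE), or 4.34-fold (limma adjusted p = 1.79e-07). Androgenetic Tpm1 signals, 39784 to 47129 before normalization, reached 71.5% of the array's highest, so its change too may be limited from above, which was not tested. Tpm2 read 12.09, 12.11 and 12.05 on androgenetic and 10.68, 11.04 and 10.37 on fertilized arrays. The fertilized arrays of Tpm2 were the most spread of the 9 probes (SD 0.33, n = 3), and none reached the androgenetic ones. Tpm2 was higher by 1.39 ± 0.15 (log2, SE), or 2.62-fold (limma adjusted p = 2.93e-05).

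Cnn2 is a calponin made in many cells other than muscle, and its promoter carries the full CArG box shown above. Its change was the smallest of the 5. Probe 1 read 10.68, 10.63 and 10.63 on androgenetic and 9.80, 9.28 and 9.87 on fertilized arrays, and passage 7 was the low one among the latter. The change was 1.00 ± 0.15 (log2, SE), or 2.00-fold (limma adjusted p = 0.000266). Probe 2 gave 1.06 ± 0.095 (limma adjusted p = 1.01e-05). Of all kept probes, 14.7% and 13.6% rose by as much as these.

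Parthenogenetic cells were set against fertilized cells to ask the same of maternal genomes. Here the contractile genes divided. Acta2 and Tagln were higher, 2 of 5 genes, and the changes of Tpm1, Tpm2 and Cnn2 by its brighter probe did not pass. Of all kept probes 39.7% passed in either direction and 19.7% as higher, and the median log2 change was -0.01. By probes, 5 of 9 were higher, 1 was lower and 3 did not pass. The fertilized arrays are the same as in the comparison above, so the members' changes in both share the error of those 3 arrays.

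Acta2 was higher by all 4 of its probes. Probe 2 read 12.31 and 12.29 in parthenogenetic cells, above the fertilized 11.57, 11.31 and 11.50 and below every androgenetic array. The change was 0.84 ± 0.093 (log2, SE), or 1.79-fold (limma adjusted p = 0.000215), and 5.33% of kept probes rose by as much. The other probes gave 0.67 ± 0.098, 0.65 ± 0.090 and 0.80 ± 0.11, with limma adjusted p of 0.000924 at most. For each of the 4 probes both parthenogenetic arrays were above all fertilized arrays.

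Tagln read 8.11 and 8.18 in parthenogenetic cells, just above the highest fertilized array, 7.90. It was higher by 0.42 ± 0.10 (log2, SE), or 1.34-fold (limma adjusted p = 0.0117), and 16% of kept probes rose by as much. Without the parthenogenetic array of passage 7 the change was 0.39 and no longer passed (limma adjusted p = 0.0775).

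Tpm1 read 13.15 and 13.24, inside the fertilized range of 13 to 13.31. Its change of 0.04 had a 95% interval from -0.22 to 0.29 (limma adjusted p = 0.810). Tpm2 read 10.51 and 10.50, also inside the fertilized range of 10.37 to 11.04. Its change of -0.19 had a 95% interval from -0.56 to 0.18 (limma adjusted p = 0.388). For Tpm1 the interval lies below a log2 change of 0.3, whereas for Tpm2 it reaches down to -0.56. Without the fertilized array of passage 8, Tpm2 was lower by a log2 change of -0.35 and passed (limma adjusted p = 0.0433).

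The 2 Cnn2 probes disagreed. Probe 1 read 9.72 and 9.50, inside the fertilized range of 9.28 to 9.87, with a change of -0.04 and an interval from -0.42 to 0.34 (limma adjusted p = 0.875). Probe 2 read 7.93 and 7.82, below the fertilized 8.28, 8.09 and 8.37, with a change of -0.37 ± 0.11 (log2, SE; limma adjusted p = 0.0235). The call of probe 2 was lost without either parthenogenetic array or the fertilized array of passage 6, and under median scaling. Which transcripts each probe reads was not determined here, as probe sequences were not used.

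**Figure D2:**
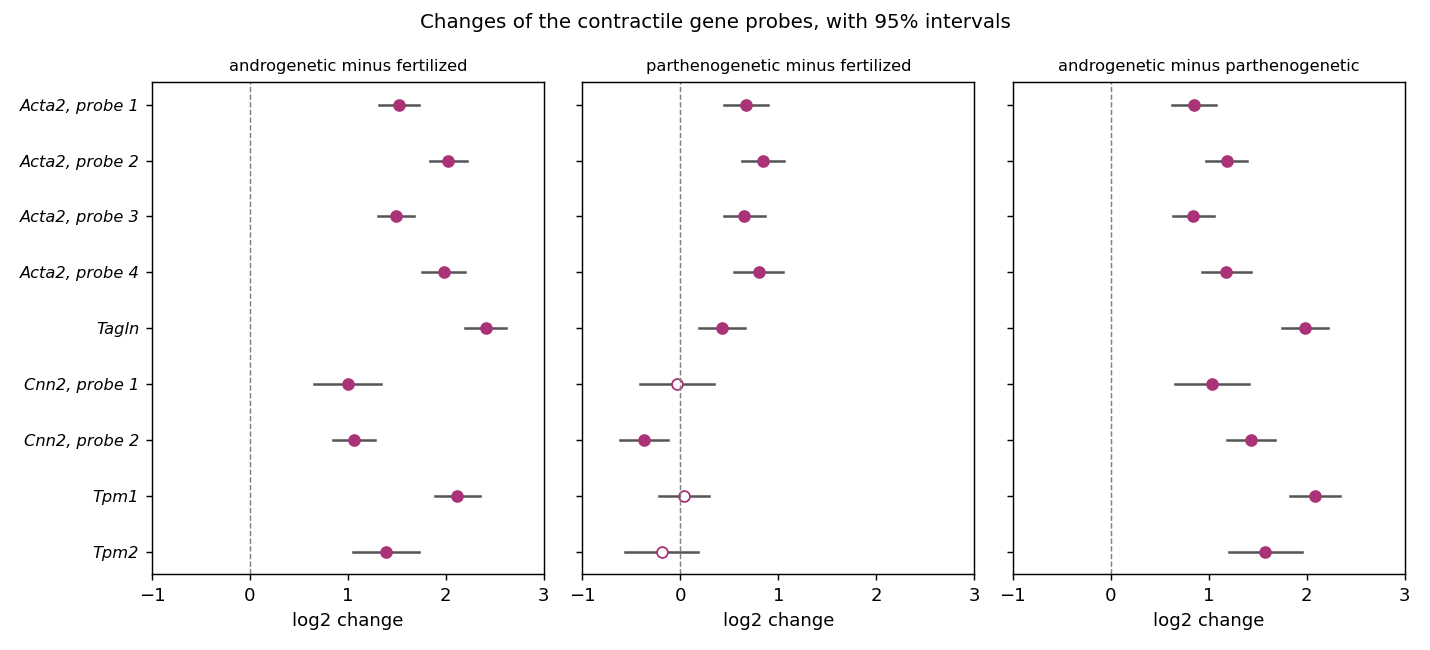
Log2 change (horizontal axis) of each of the 9 probes in the 3 comparisons, with 95% intervals from the limma fit. Filled points passed an adjusted p of 0.05. Both comparisons with androgenetic cells have 9 filled points to the right of 0, and parthenogenetic against fertilized cells has 5 to the right, 1 to the left and 3 open.

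Androgenetic and parthenogenetic cells were then compared directly. All 5 genes were higher in androgenetic cells, by 9 of 9 probes with no overlap of arrays, beside 70.9% of kept probes past the threshold and 35.2% higher. The members' median log2 change was 1.58, and that of all kept probes was -0.01. Tpm1 differed most, by 2.08 ± 0.11 (log2, SE), or 4.23-fold (limma adjusted p = 4.86e-07). Tagln followed with 1.98 ± 0.10 (limma adjusted p = 3.94e-07) and Tpm2 with 1.58 ± 0.16 (limma adjusted p = 3.09e-05). Cnn2 gave 1.03 ± 0.17 and 1.43 ± 0.11 by its probes. Acta2 differed least by 2 of its probes, 0.85 ± 0.098 and 0.84 ± 0.090, and gave 1.18 ± 0.093 and 1.18 ± 0.11 by the others.

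The order of the groups therefore had the same top in all 9 probes and not the same lower end. For Acta2 the order was androgenetic, parthenogenetic, fertilized, with every neighbouring step past the threshold. Tagln had this order too, with a far larger upper step (1.98) than lower step (0.42). For Tpm1, Tpm2 and Cnn2 probe 1, parthenogenetic and fertilized cells did not differ beyond their spread. Whether the lower steps of Acta2 and Tpm1 differ from each other was not tested.

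Fertilized arrays set the baseline for 2 of the comparisons, and their probes did not shift together. The passage 7 array was above the fertilized mean by 0.17 for Acta2 probe 1, 0.18 for Tagln and 0.34 for Tpm2. The same array was below it by a log2 deviation of -0.14 for Acta2 probe 2, -0.20 for Acta2 probe 4, -0.37 for Cnn2 probe 1 and -0.16 for Tpm1. Probes of 1 gene, Acta2, thus deviated in opposite directions on 1 array. Over the 9 probes this array lay above the mean for 4 and below it for 5. It was also the array with the fewest detected probes, 10623.

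**Figure D3:**
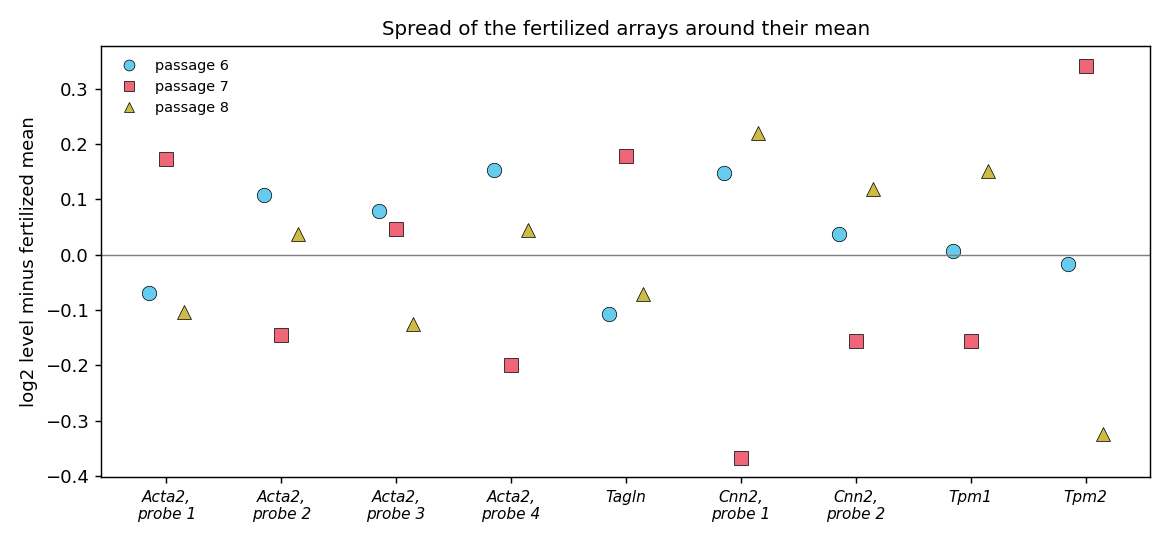
Log2 level minus the fertilized mean (vertical axis) for each of the 9 probes on the 3 fertilized arrays, with the passage shown by colour and shape. Passage 7 is the highest point for Acta2 probe 1, Tagln and Tpm2 and the lowest for Acta2 probes 2 and 4, both Cnn2 probes and Tpm1.

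The genes whose profile over the 8 arrays lay nearest to a member were found by the root mean square distance between log2 profiles, each centred on its mean. For Acta2 probe 1 they were Plec (distance 0.051), which encodes a linker of the cytoskeleton, Ddr1 (0.053), a collagen receptor, and Wnt7b (0.076). For Tagln they were Arhgap35 (0.053), Slc25a10 (0.075) and Serpinh1 (0.082), a collagen chaperone. Tpm1 lay nearest to Irf2 (0.077), Stard10 (0.082) and Rbms2 (0.094). Tpm2 lay nearest to Gdpd5 (0.083), Ier5l (0.094) and Tap2 (0.094), and Cnn2 probe 1 to Pus10 (0.077), Sypl (0.085) and Serinc1 (0.096). No member was among the nearest genes of another. Tpm1 was closest, at rank 92 of 8220 genes for Tagln (distance 0.23), while Acta2 was at rank 478 for Tagln and Tagln at rank 1810 for Acta2 probe 1. With 3 groups the profiles hold few independent points, and the distances are a description.

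The other actin isoforms share nearly all of their protein sequence with Acta2. Cross-hybridisation between their probes was not tested. Of 5 measured, 3 were higher in androgenetic than in fertilized cells and 2 did not pass. Actg2, the enteric smooth muscle actin, was not detected on any fertilized array and was at least 4.60-fold higher in androgenetic and at least 1.13-fold higher in parthenogenetic cells, a bound taken from the level at which detection begins. Actc1, the cardiac isoform, was higher by 1.75 ± 0.082 (log2, SE; limma adjusted p = 1.78e-07) in androgenetic cells and detected on 2 of 3 fertilized arrays. The third was Actb, named here after its values were seen because its probes conflict. The brightest 2 of its 5 probes gave 0.59 and 0.81 (limma adjusted p = 0.000124 and 3.39e-05), whereas 2 others gave -1.26 and -1.29 (limma adjusted p = 0.00122 and 0.000507). In parthenogenetic cells 1 of the 5 isoforms was higher and 3 lower than in fertilized cells, unlike Acta2. Actg1, a cytoplasmic actin, was not detected there and was at least 1.38-fold lower. Its only probe was dim, with a mean log2 level of 7.09 in fertilized cells, where detection begins at 6.60 to 6.85. How well this probe reads the gene was not tested. By the brightest probe of each, all 5 were higher in androgenetic than in parthenogenetic cells, Actc1 by at least 3.81-fold, but 2 of the dimmer Actb probes were lower there, at -1.33 and -1.26.

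Relatives of the other members were measured less fully, with 3 of 5 genes on the kept probes. Tpm3, a cytoplasmic tropomyosin, was above the fertilized level in androgenetic cells by 0.65 ± 0.16 (log2, SE; limma adjusted p = 0.00574), less than either Tpm1 or Tpm2. Tagln3, the neuronal transgelin, was lower in the fit (limma adjusted p = 0.0179), but it was undetected on every androgenetic array and detected on 1 of 3 fertilized arrays, so no fold is given. Cnn3 did not pass there and was lower in parthenogenetic than in fertilized cells, at -0.36 (limma adjusted p = 0.0482).

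Myosin II and the proteins that control its light chain act on the filaments that the members build. Of 10 measured genes in this list, 8 were higher in androgenetic than in fertilized cells and the others did not pass, with a median log2 change of 0.94. Rhob was higher by 2.10 ± 0.088 (log2, SE) and Rnd3 by 1.87 ± 0.11 (limma adjusted p = 9.00e-08 and 7.98e-07). Against fertilized cells, parthenogenetic cells had 3 higher and 7 not passing, with Myh10, a non-muscle myosin heavy chain, at 0.46 (limma adjusted p = 0.00274). Against parthenogenetic cells, androgenetic cells had 7 of 10 higher.

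Other cytoskeletal targets of SRF resembled the members in direction. The list shares Actb, Actg1, Myh9, Fhl2, Csrp1 and Cald1 with other lists of this report, so its counts are not separate from theirs. Actb counts here by its brightest probe, although its probes conflict. Of 19 measured, 16 were higher and 1 lower in androgenetic than in fertilized cells, with a median of 1.01 beside 1.52 for the members. Over all 8221 named genes, 35.4% were higher and 39.3% lower, with a median of -0.05. Fhl2, a cofactor and target of SRF, was higher by 2.11 ± 0.10 (log2, SE) and Zyx, a focal adhesion protein, by 1.87 ± 0.069 (limma adjusted p = 1.91e-07 and 4.44e-08). Lima1, an actin cross-linker, went the other way by both of its probes, -1.93 and -1.61. In parthenogenetic cells the list was divided, with 6 higher and 5 lower than in fertilized cells and a median of 0.06. Cfl1, an actin-severing protein, was higher by 1.03 there (limma adjusted p = 0.000251). Against parthenogenetic cells, androgenetic cells had 15 higher and 1 lower.

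Srf itself was above its fertilized level in androgenetic cells by 0.38 ± 0.070 (log2, SE; limma adjusted p = 0.00111), far less than any member, and did not pass in parthenogenetic cells. Only 3 of the 14 symbols listed as SRF and its cofactors were measured, and the MRTF genes were not among them. In the list of smooth muscle differentiation 7 of 14 were measured, with 3 higher and 2 lower in androgenetic than in fertilized cells and a median of 0.07. Cald1, an actin-binding regulator, was higher by 1.80 ± 0.32 (log2, SE; limma adjusted p = 0.000796), and its other probe gave 1.77. Des, the muscle intermediate filament, was lower by a log2 change of -0.62 ± 0.10 (limma adjusted p = 0.000576). Myh11 and Myocd, the most specific smooth muscle genes on the list, were not measured. In parthenogenetic cells 2 were higher and 2 lower than in fertilized cells, and androgenetic against parthenogenetic cells had 3 higher and 1 lower.

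**Figure D4:**
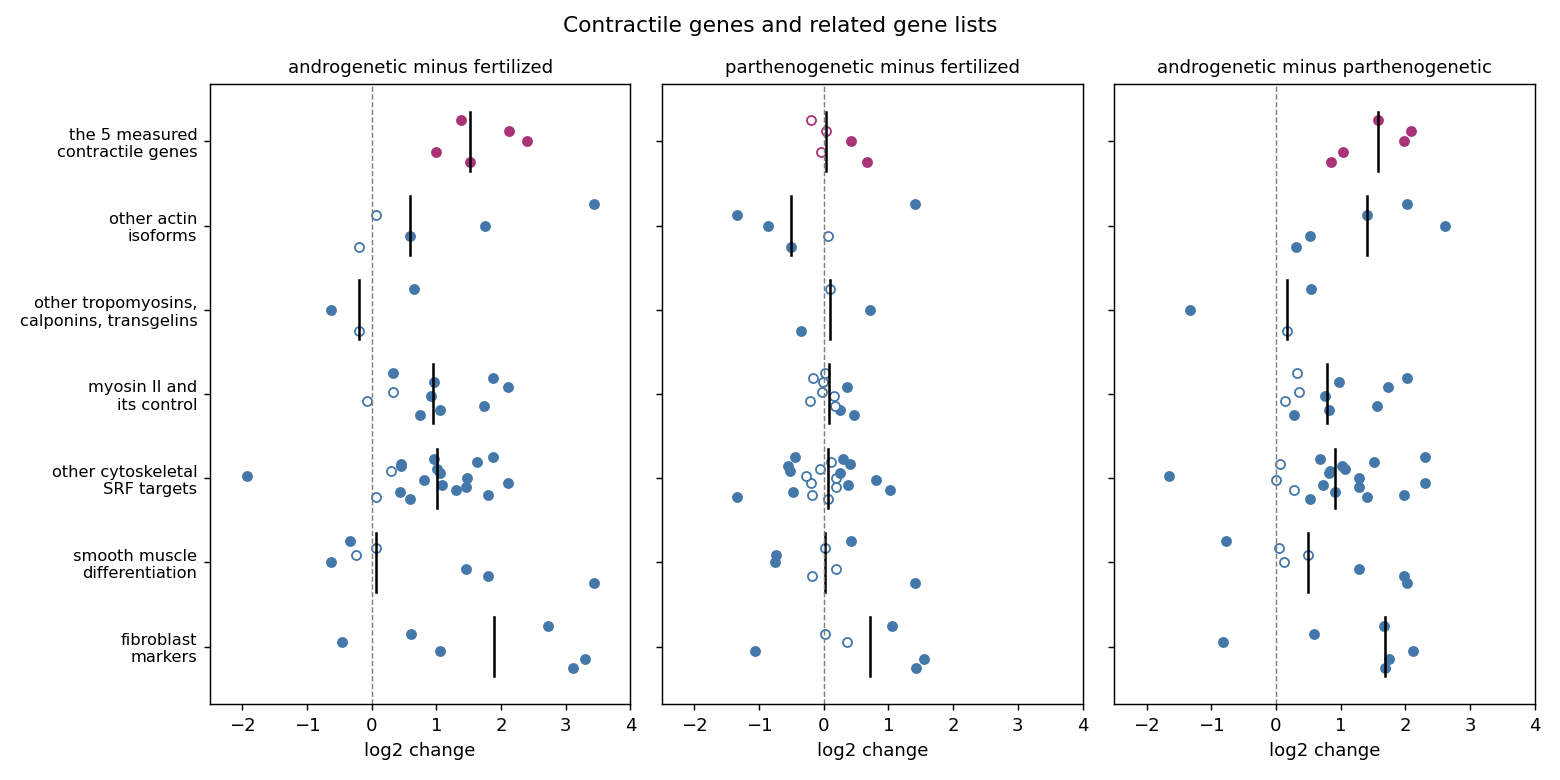
Log2 change (horizontal axis) of each measured gene of 7 lists in the 3 comparisons, with 1 point per gene, filled where the adjusted p was under 0.05, and a bar at the list's median. The medians for androgenetic against fertilized cells are 1.52 for the members, 1.01 for other SRF targets and 0.94 for myosin II genes. The medians for parthenogenetic against fertilized cells are 0.04, 0.06 and 0.08 for the same lists. Genes not detected in 1 group are drawn at their fitted change. Some genes belong to several lists and are drawn in each.

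YAP and TEAD also answer to actin tension, and their targets were listed together with the factors themselves. Of 10 measured, 8 were higher and 1 lower in androgenetic than in fertilized cells (median 0.95), led by Axl at 2.84. Over all named genes 35.4% were higher and 39.3% lower. The higher genes include some of the factors. The lower one was the target Ankrd1, at -1.09 and -1.63 by its 2 probes (limma adjusted p = 2.01e-05 and 1.55e-05). In parthenogenetic cells 2 were higher and 5 lower (median -0.31). Ccn1, a matrix protein gene shared by SRF and YAP, was lower there at -0.66 (limma adjusted p = 0.00161). Of 7 measured genes of the response to TGF beta, a known inducer of Acta2 and Tagln, 6 were higher and 1 lower in androgenetic cells, with a median of 2.47, or 1.62 with undetected genes at their bound. Tgfbr2 was higher by 3.28 ± 0.088 (log2, SE) and Tgfb1, undetected on all fertilized arrays, at least 2.94-fold higher. In parthenogenetic cells 5 of the 7 were higher and 1, Skil at -0.57, was lower, with a median of 0.43. Tgfb1 counted among these 5, although it was undetected on every parthenogenetic and fertilized array.

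Most of the measured embryonic fibroblast markers, but not all, moved with the members in androgenetic cells. Embryonic fibroblasts, often used as feeder cells, express Acta2, Tagln, Tpm1 and Tpm2. Of 19 fibroblast markers 6 were measured, and 5 of these were higher and 1 lower in androgenetic than in fertilized cells. Their summed normalized signal ran from 11041 to 11635 on androgenetic, 3686 to 4185 on parthenogenetic and 1894 to 2077 on fertilized arrays. This is the order of groups of Acta2 and Tagln, and the trophoblast and endothelial sums given below had it too. Col1a1 was undetected on all fertilized arrays, and Col5a1 and Vim were detected on all 8. Against fertilized cells, 3 were higher and 1 lower in parthenogenetic cells, with Col5a1 higher by 1.55 (limma adjusted p = 4.96e-05). The lower one there, Pdgfra, was undetected on every parthenogenetic array and detected on 1 fertilized array. The part of such cells in the members' changes was not tested.

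Trophoblast markers, of which 8 of 11 were measured, summed to 83738 to 89626 on androgenetic, 27681 to 27822 on parthenogenetic and 22637 to 25345 on fertilized arrays. Of these, 6 were higher and 1 lower in androgenetic than in fertilized cells, with Krt8 at 2.42, and Eomes was undetected in the other groups. The lower one, Ascl2, was undetected on every androgenetic array and at least 1.25-fold lower. Krt8 and Krt18, at mean log2 levels of 15.68 and 14.45 in androgenetic cells, weighed most in the androgenetic sum. Parietal endoderm markers, 7 of 11 measured, summed to 20974 to 22083 on androgenetic, 8983 to 9869 on parthenogenetic and 13003 to 14443 on fertilized arrays, with Gata6 undetected in parthenogenetic cells. Their part in the members' changes was not tested. Of 13 cardiac markers 3 were measured and summed to 1432 to 1501, 1963 to 1992 and 1278 to 2287 in the androgenetic, parthenogenetic and fertilized groups, which do not follow the members. The 2 measured skeletal muscle markers of 10 summed to less on androgenetic arrays (1211 to 1321) than on parthenogenetic (3381 to 3397) or fertilized ones (2862 to 3892). Behind these muscle sums single genes moved apart. Mylpf, the brighter skeletal marker, fell in androgenetic cells by a log2 change of -1.82 from its fertilized level (limma adjusted p = 1.24e-06). Tnni2, the other, was undetected on every fertilized array and at least 3.00-fold higher in androgenetic cells. Of the cardiac markers, Tnnc1 rose by 1.00 in the same comparison (limma adjusted p = 0.000137), and Myl3 and Myl4 stood at -1.50 and -0.81. Of 4 measured endothelial markers of 8, Tek, Vwf and Esam were undetected on every androgenetic array, and Flt1 was higher there by 2.08. Endothelial sums ran from 1839 to 1954 on androgenetic, 1342 to 1400 on parthenogenetic and 1049 to 1147 on fertilized arrays.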

How the data were processed

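Each of the 8 samples was read on 1 single-colour Illumina BeadChip. The mirVana kit was used for total RNA and 0.55 ug went into labelled cRNA, per the labels' protocols. BeadStudio 3.1.3 is named in the submitters' processing notes. The authors deposited a linear intensity and a detection p-value per probe, not normalized, for 25697 probes, and a table of log2 values for 12891 probes. The latter was rebuilt to within 0.000742 by quantile normalizing log2 intensities where the detection p was under 0.05 on 4 arrays or more.

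Intensities were processed with neqc in limma 3.58.1 (R 4.3.3, offset 16). A probe was kept where its detection p was under 0.01 on 2 arrays or more, 12300 in all. All 8 arrays entered one linear model, with group means as its terms (5 residual and 3.51 prior degrees of freedom). Two-sided moderated tests were adjusted by Benjamini-Hochberg over kept probes, with a threshold of 0.05, and checked on simulated data. The number of arrays limits the precision. Other lists are represented by each gene's probe of highest mean, and up to 2 higher and 2 lower genes past the threshold with the largest changes could be named. An undetected group was set at the signal where detection begins. The replicate numbers did not act as pairs: residual correlations of same-numbered arrays lay between -0.09 and 0.07. The members and lists were chosen with earlier results of these data known. Gene names come from GEO's platform annotation, which covers only probes of the authors' log2 table.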

Additional observations from a re-analysis of the deposited data

How the results depend on the processing

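Alternatives were no background correction, median scaling, an offset of 50, probes detected on all 8 arrays, no filter on dim probes, the authors' deposited log2 values, the replicate block, leaving out each array, and other probes of Acta2 and Cnn2 or the mean over a gene's probes. Androgenetic against either other kind kept 5 of 5 genes higher under all of them. Of 432 member results, 418 kept direction and side of the threshold. The others all concerned parthenogenetic against fertilized cells, where the number of member genes past the threshold ran from 1 (without the parthenogenetic array of passage 7) to 3 (without the fertilized array of passage 8) when single arrays were left out, and that of all kept probes from 3221 (without the parthenogenetic array of passage 6) to 5412. There, Tpm1 turned to -0.0878 under median scaling and ran from -0.0403 to 0.114 with single arrays left out, and Cnn2 probe 1 ran from -0.221 to 0.0725. With the replicate block Cnn2 probe 1 turned to 0.0132, still without a call, and no member call changed. A parthenogenetic array left alone was assumed to vary like the other groups. None of these reversed values passed the threshold, and the cause was not tested. Median scaling moved the median change of all probes from -0.02 to 0.12 for androgenetic against fertilized and from -0.01 to 0.18 for androgenetic against parthenogenetic cells. In the latter it turned 4329 higher and 4390 lower probes into 5267 and 3373. It also left 1 myosin II gene higher in parthenogenetic against fertilized cells in place of 3 and 1 YAP and TEAD gene in place of 2, and raised the smooth muscle genes higher in androgenetic against parthenogenetic cells from 3 to 5. Probes near the top of the scanner's range (Acta2 probe 1, Tpm1) may understate changes, which was not tested, and near-background probes of other lists depend on the offset.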
